A study of Mus musculus with 22 samples.

Results

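The mRNA bound to tagged ribosomes was compared across 6 cell types of the mouse nervous system for 10 genes of steroid and thyroid hormone signalling, chosen by symbol: Nr3c1, Nr3c2, Fkbp5, Hsd11b1, Thra, Thrb, Dio2, Rora, Rorb and Esr1. They are 10 of the 55385 genes in the deposited transcript tables, and all 10 passed the filter on low counts. In the RiboTag method used, Cre recombinase switches the ribosomal protein gene Rpl22 to an HA-tagged form, and the immunoprecipitated mRNA is called the translatome. All mice were 6 weeks old and carried the allele as Rpl22 Fl/+ together with a Cre driver. Dentate gyrus granule cells came from hippocampus with Rbp4-Cre, layer V cortical neurons from cortex with Rbp4-Cre, cerebellar granule cells from cerebellum with Gabra6-Cre, and inhibitory interneurons from hippocampus with Dlx6a-Cre. Astrocytes and microglia came from cortex, with drivers labelled Aldh1-cre and Tmem119-cre. Per the study's methods both glial drivers are inducible Cre-ERT2 lines whose mice received tamoxifen, so tamoxifen and glial cell type cannot be told apart in these libraries. Each cell type had 3 biological replicates of mixed sex, and each interneuron library pooled 2 mice. All interneuron and microglia libraries were sequenced in batch 2 and all other libraries used here in batch 1. Among the libraries used, batch therefore cannot be separated from those 2 cell types. Of the other cell types, 4 replicates were sequenced in both batches, and their second runs entered alternative fits only.

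Steroid and thyroid hormone receptors are transcription factors that carry a zinc-finger DNA-binding domain and a ligand-binding domain. In the brain, corticosterone binds the mineralocorticoid receptor with higher affinity than the glucocorticoid receptor, and enzymes inside the cell regenerate or destroy the active steroid. Thyroxine is taken up by glia and neurons and must be converted to triiodothyronine by a deiodinase before it binds its receptors well, and the ROR receptors bind related DNA elements and act on clock genes.

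The libraries matched their labels by marker genes, with mRNA of other cells present. All 3 dentate granule, 4 cerebellar granule, 4 interneuron, 5 astrocyte and 4 microglia markers were highest on average in their own cell type, on the TPM scale (a relative abundance per length of transcript). Of the 3 layer V markers, Fezf2 was highest in layer V neurons, whereas Bcl11b was highest in dentate granule cells and Etv1 in cerebellar granule cells. The summed TPM of 4 oligodendrocyte markers was 1434 to 1582 in interneuron libraries against at most 454 in any other library. Pyramidal CA1 and CA3 markers, 3 in number, summed to 208 to 285 TPM in dentate granule libraries against at most 107 TPM in any other. The summed TPM of 4 endothelial and mural markers was at least 136 in every microglia library against at most 57.4 in any other, and the choroid plexus gene Ttr was at 3635 TPM in astrocyte replicate 1 against 4.99 and 11.6 TPM in the others. The second sequencing run of layer V replicate 1 was labelled male and the first female, and both had the Xist level of a female library. The libraries used held 38270477 to 71440915 estimated counts each.

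Short coding stretches are shown first because they mark how the receptors are related and which transcripts the reads can tell apart. The bases are from GENCODE M21 transcripts (GRCm38), whose versioned identifiers are the same as in the deposited tables. The first set codes for the start of the DNA recognition helix. Capitals mark the 3 codons of the P box, which set the DNA half-site that a receptor prefers.
Nr3c2, 5675-nt transcript (chr8:77085627-77085650, plus strand): tgcGGCAGCtgcaaaGTCttcttc
Esr1, 6339-nt transcript (chr10:4746768-4746791, plus strand): tgcGAAGGCtgcaagGCTttcttt
Thra-201 (chr11:98757009-98760884, plus strand, across an intron): tgtGAGGGCtgcaagGGCttcttt
Thrb-202 (chr14:18002614-18008577, plus strand, across an intron): tgtGAAGGCtgcaagGGCttcttt
Rora-201 (chr9:69348203-69361747, plus strand, across an intron): tgtGAAGGCtgcaagGGCtttttc
Rorb-203 (chr19:18983475-18988045, minus strand, across an intron): tgtGAAGGCtgcaagGGAttcttc

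Thrb-202 and Rora-201 shared all 9 capital bases, whereas the Nr3c2 transcript differed from each of the other 5 receptors at 4 or 5 of them. The second set shows where the receptor transcripts Thra-201 and Thra-202 part. Lower case marks the end of the shared coding sequence, which runs through the first 370 codons, and capitals the bases that follow.
Thra-201 (chr11:98764389-98768193, plus strand, across an intron): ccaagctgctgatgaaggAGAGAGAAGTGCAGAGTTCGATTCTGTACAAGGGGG
Thra-202 (chr11:98764389-98764442, plus strand): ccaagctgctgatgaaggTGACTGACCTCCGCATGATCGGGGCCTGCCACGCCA

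Thra-201 codes for 492 codons, the length of the isoform TRalpha2, which does not bind triiodothyronine, and Thra-202 for 410 codons, the length of the hormone-binding TRalpha1. The third set shows the coding starts of Rorb-201 (470 codons) and Rorb-203 (459 codons), which share their last 456 codons. Capitals mark the start of each that the other lacks.
Rorb-201 (chr19:18988102-19001046, minus strand, across an intron): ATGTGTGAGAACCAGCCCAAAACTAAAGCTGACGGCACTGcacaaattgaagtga
Rorb-203 (chr19:18988102-19110558, minus strand, across an intron): ATGCGAGcacaaattgaagtga

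Gene-level counts of all 20524 genes that passed the filter were compared in 1 fit of the 6 cell types by edgeR. A gene was called where the Benjamini-Hochberg adjusted p over all these genes was at most 0.05 and the difference was at least 2-fold. For any difference among the 6 cell types, where adjusted p alone decided, all 10 genes passed, and so did 97.3% of all genes tested, so this count says nothing particular about them. The cell type means of log2 CPM (the count relative to the library total, scaled by TMM) spanned 2.21 for Nr3c1 and 2.96 for Thra, near the median span of 2.57 over all tested genes. Dio2 with 7.78, Rorb with 7.45, Hsd11b1 with 6.88 and Esr1 with 10.4 spanned far more, and 94.7% of tested genes had a smaller span than Dio2. The Esr1 span rests on 0 to 3 estimated counts per library in cerebellar granule cells. Its upper end is a glial level that cannot be told apart from Cre-ERT2 mRNA, as given below.

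Each cell type was then set against the mean of the other 5. In dentate granule cells 3 of the 10 genes were higher (14.1% of all genes were) and 5 lower (14.0%). In layer V neurons 3 were higher (17.3%) and 1 lower (16.2%). In cerebellar granule cells 2 were higher (15.7%) and 7 lower (33.2%), the largest share of the list called in 1 direction. In interneurons 2 were higher (14.8%) and 3 lower (11.3%). In astrocytes 5 were higher (24.4%) and 1 lower (10.4%). In microglia 2 were higher (29.0%) and 5 lower (20.8%). Esr1 was among the higher genes in both glial types, where its level cannot be told apart from Cre-ERT2 mRNA. The median log2 fold change of the 10 genes was -0.96 in dentate granule cells, 0.64 in layer V neurons, -2.10 in cerebellar granule cells, 0.29 in interneurons, 1.14 in astrocytes and -1.28 in microglia. Over all tested genes the medians were -0.01, -0.02, -0.27, -0.02, 0.08 and 0.09 in the same order. With limma on log2(TPM + 0.5) in place of edgeR, the share of higher genes among all called genes was 40.1% against 51.6% in layer V neurons and 54.1% against 70.2% in astrocytes. In tissue from which only tagged ribosomes were drawn, fewer molecules per cell and fewer cells holding the mRNA cannot be told apart for any of these values.

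**Figure D1:**
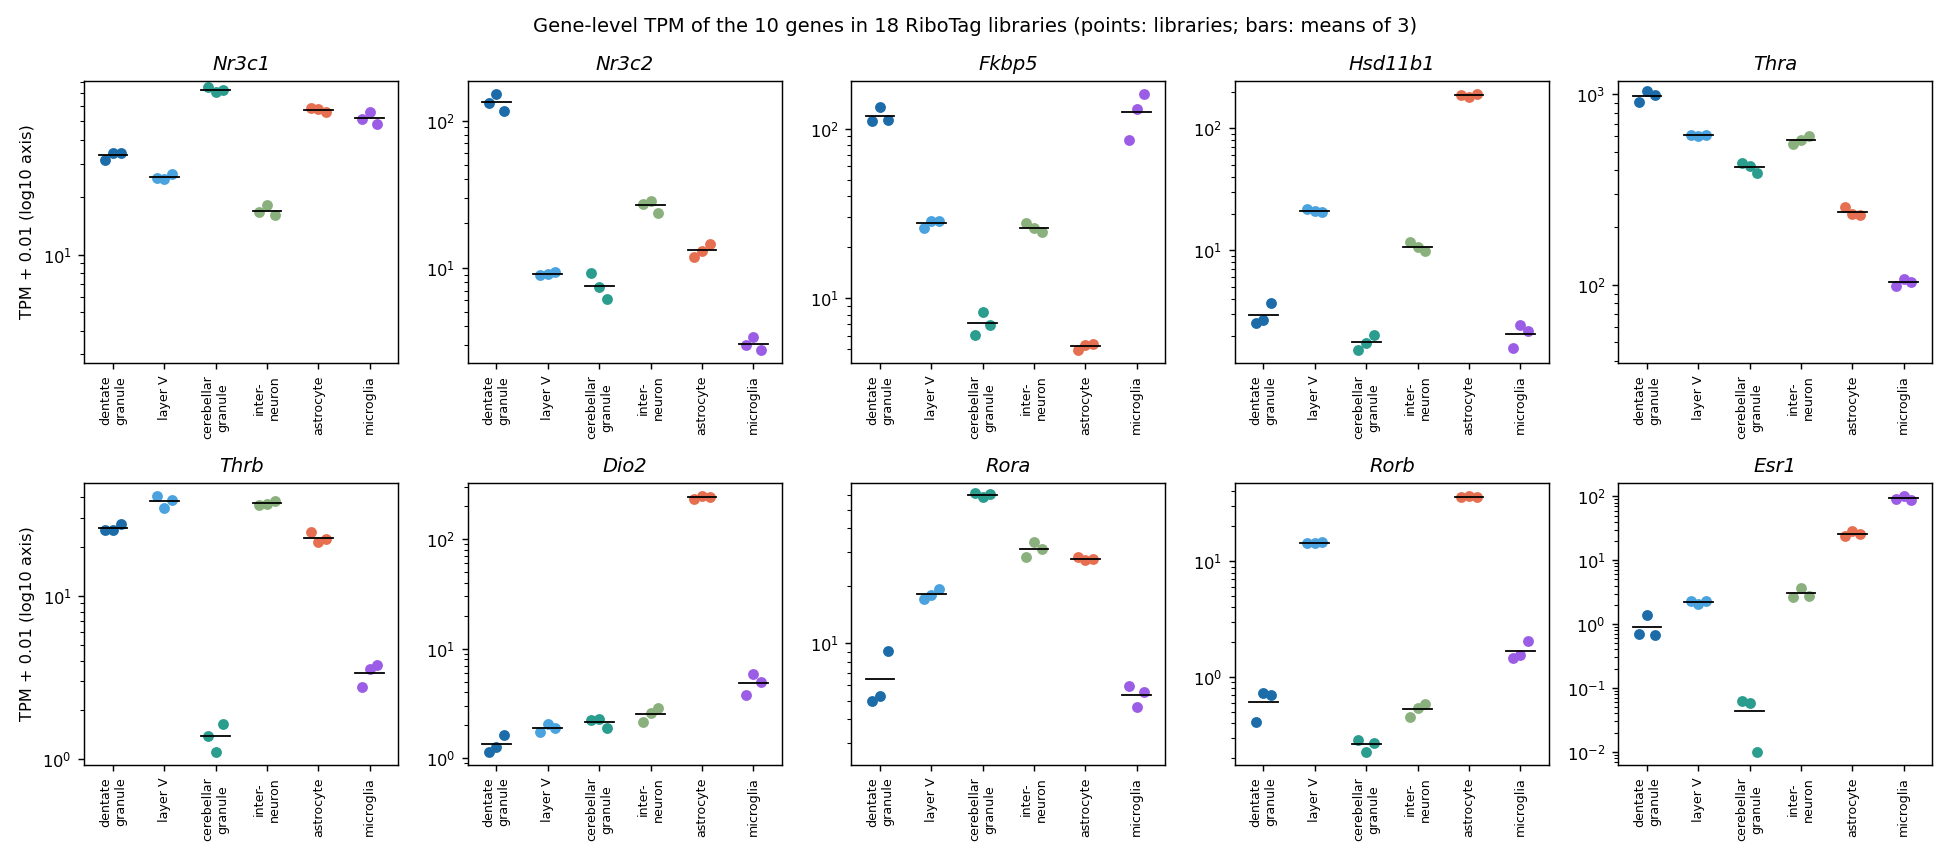
Gene-level TPM plus 0.01 on log10 axes for the 10 genes, with 1 point for each of the 18 libraries and a bar at the mean of the 3 libraries of a cell type. Dio2 and Hsd11b1 stand apart in astrocytes, Nr3c2 in dentate granule cells and Esr1 in the 2 glial types, and cerebellar granule cells are lowest for Thrb, Rorb, Hsd11b1 and Esr1. The glial Esr1 level cannot be told apart from Cre-ERT2 mRNA.

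**Figure D2:**
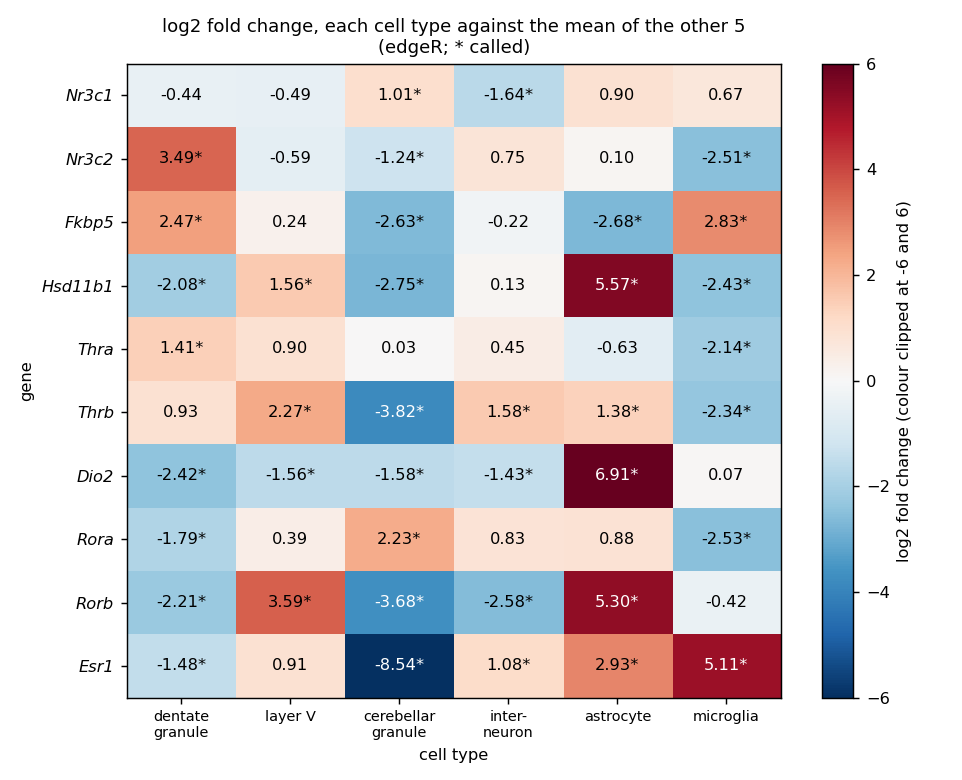
Log2 fold change from edgeR of each cell type (columns) against the mean of the other 5 for the 10 genes (rows), written in each cell and shown by colour, clipped at -6 and 6. Stars mark values with adjusted p of at most 0.05 and at least 2-fold, for example 6.91 for Dio2 in astrocytes.

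The mineralocorticoid receptor gene Nr3c2 (chromosome 8, 76899442 to 77245012, plus strand, GRCm38) was most abundant in dentate granule cells, at 132, 152 and 116 TPM in the 3 libraries. Every dentate granule library lay above every library of the other cell types. Interneurons followed with 27.3, 28.6 and 23.6 TPM and astrocytes with 11.9, 12.9 and 14.5 TPM. Layer V neurons (8.97 to 9.38 TPM) and cerebellar granule cells (6.13 to 9.18 TPM) overlapped, and microglia were lowest at 2.75 to 3.37 TPM. Against the mean of the other 5 cell types, Nr3c2 was 11.3-fold higher in dentate granule cells (log2 fold change 3.49, standard error 0.079, edgeR adjusted p = 4.90e-17). It was 5.68-fold lower in microglia and 2.37-fold lower in cerebellar granule cells. With the same Cre line and the same batch, layer V neurons were 10.6-fold below dentate granule cells (log2 fold change -3.40, standard error 0.13, edgeR adjusted p = 6.51e-13).

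The glucocorticoid receptor gene Nr3c1 (chromosome 18, 39410545 to 39519421, minus strand) was spread more evenly. Cerebellar granule cells held 75.2, 71.0 and 72.5 TPM, astrocytes 58.8, 57.7 and 56.0 TPM and microglia 51.5, 55.8 and 48.3 TPM. Dentate granule cells followed at 31.3, 34.2 and 33.9 TPM, layer V neurons at 25.3, 24.9 and 26.4 TPM and interneurons at 16.7, 18.1 and 16.2 TPM. No neighbouring cell types in this order overlapped, and the highest mean was 4.29 times the lowest. Interneurons were 3.12-fold below the mean of the others (log2 fold change -1.64, standard error 0.049, edgeR adjusted p = 3.53e-15). Cerebellar granule cells were 2.01-fold above it, at the edge of the 2-fold rule. Batch 1 libraries alone hold no interneurons or microglia. Against the mean of the other batch 1 types, the cerebellar granule log2 fold change was 0.88, short of that rule. Layer V neurons and dentate granule cells differed by a log2 fold change of -0.05 (standard error 0.056, edgeR adjusted p = 0.467).

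The balance of the 2 corticosteroid receptors ran in opposite directions between cell types. In dentate granule cells the TPM of Nr3c2 was 4.21, 4.46 and 3.41 times that of Nr3c1, and in interneurons it was 1.63, 1.58 and 1.46 times. In every library of the other 4 cell types Nr3c1 exceeded Nr3c2. The excess was 2.76 to 2.82 times in layer V neurons, 3.86 to 4.96 times in astrocytes, 8.19 to 11.8 times in cerebellar granule cells and 16.6 to 17.6 times in microglia. On the log2 scale the mean ratio of Nr3c2 to Nr3c1 ran from 2.00 ± 0.20 (SD, n = 3) in dentate granule cells to -4.10 ± 0.042 (SD, n = 3) in microglia. The ranges of no 2 cell types overlapped.

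**Figure D3:**
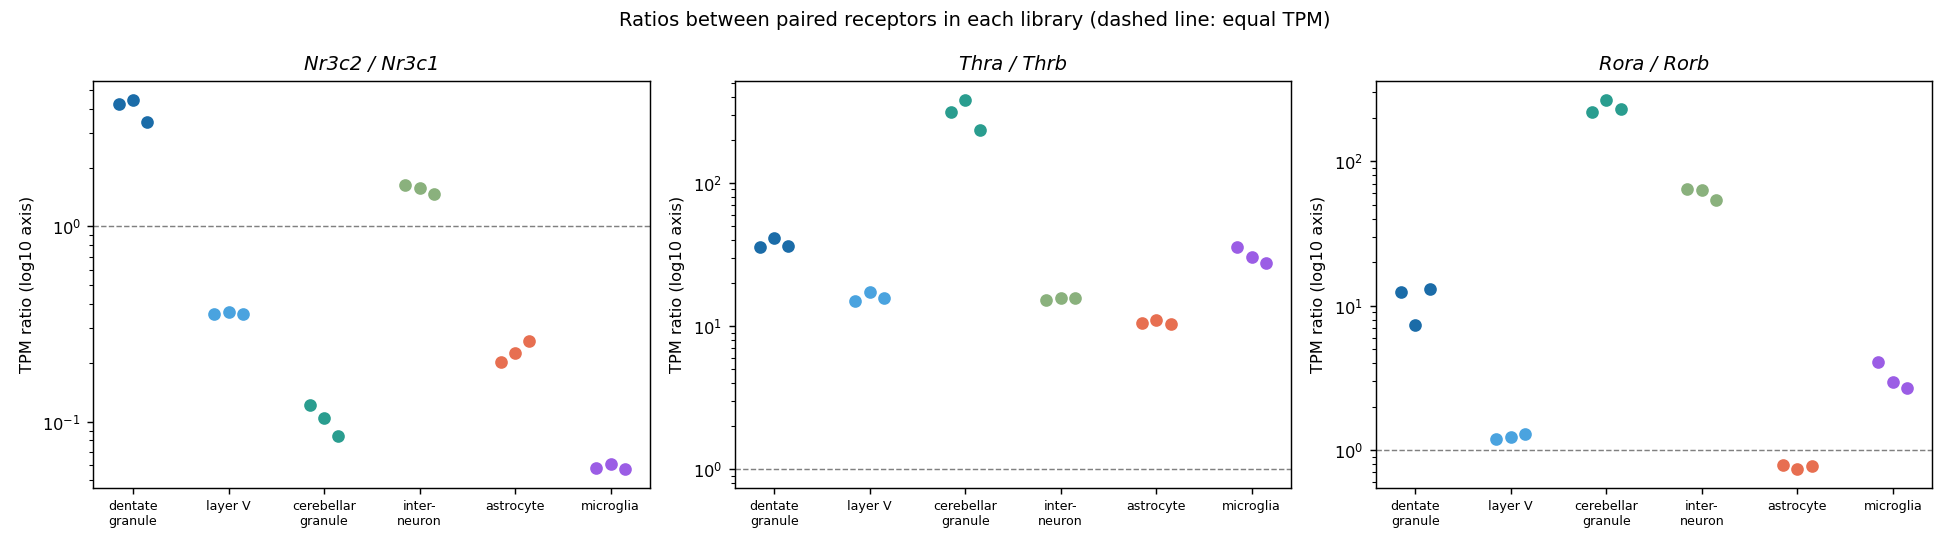
TPM ratios of Nr3c2 to Nr3c1, Thra to Thrb and Rora to Rorb on log10 axes, with 1 point for each library and a dashed line at equal TPM. Nr3c2 exceeds Nr3c1 in dentate granule cells and interneurons alone, Thra exceeds Thrb in all 18 libraries, and Rorb exceeds Rora in the 3 astrocyte libraries alone.

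Transcript shares of these genes are kallisto estimates from reads that most transcripts of a gene share. The 6327-nt transcript held 61.2% to 89.3% of Nr3c1 TPM on average in a cell type, and the 6436-nt transcript, with the same number of codons (792), held 4.36% to 24.3%. The 5675-nt and 5916-nt transcripts of Nr3c2, both of 980 codons, were close to equal in dentate granule cells (40.1% ± 5.95 and 38.2% ± 4.00, SD, n = 3), whereas the 5675-nt transcript held 66.4% to 83.5% elsewhere. A 270-nt fragment of Nr3c2 took a further 20.0% in dentate granule cells, and such short models weigh heavily in TPM.

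Hsd11b1 (chromosome 1, 193221634 to 193264075, minus strand) encodes the enzyme that regenerates active glucocorticoid from its inert 11-keto form. Astrocytes held 187, 180.2 and 192 TPM. Layer V neurons followed at 21.9, 21.0 and 20.6 TPM and interneurons at 11.6, 10.6 and 9.95 TPM. Dentate granule cells, microglia and cerebellar granule cells held 1.51 to 3.68 TPM, with overlap between the last 2. In astrocytes the gene was 47.3-fold above the mean of the others (log2 fold change 5.57, standard error 0.071, edgeR adjusted p = 6.19e-21) and 10.1-fold above layer V neurons of the same tissue and batch. Layer V neurons were in turn 8.21-fold above dentate granule cells. The 5 astrocyte markers, all above 1 TPM in layer V neurons, summed to 42.3 to 42.5 TPM there against 4617 to 4870.2 TPM in astrocytes. Among them Aldh1l1 held 27.3 to 27.9 TPM in layer V neurons and 333 to 361 TPM in astrocytes. The others, Slc1a3, Aqp4, Gfap and Gja1, held 1.19 to 6.75 TPM in layer V neurons and 371 to 2158 TPM in astrocytes. The part of astrocyte mRNA in the layer V level of Hsd11b1 was not tested. Most of the gene's TPM lay on 2 transcripts of 292 codons, and the 1355-nt one held 85.2% ± 1.77 (SD, n = 3) in layer V neurons against 53.4% ± 2.42 (SD, n = 3) in astrocytes.

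Fkbp5 (chromosome 17, 28399094 to 28517527, minus strand) encodes a cochaperone that restrains the glucocorticoid receptor and is itself a well-known glucocorticoid-induced gene. Dentate granule cells held 110.2, 135 and 112 TPM and microglia 85.4, 131 and 160.4 TPM, so that these 2 cell types overlapped. Layer V neurons (26.0 to 28.7 TPM) and interneurons (24.7 to 27.6 TPM) also overlapped. Cerebellar granule cells held 6.05 to 8.29 TPM and astrocytes 4.93 to 5.36 TPM. Microglia had the widest spread of any cell type for this gene, at a mean of 125 ± 37.7 TPM (SD, n = 3). Replicate 1, the lowest, was labelled female and the other microglia libraries male, and a part of sex in this spread was not tested. Against the mean of the others Fkbp5 was 7.09-fold higher in microglia (log2 fold change 2.83, standard error 0.089, edgeR adjusted p = 1.76e-15) and 5.52-fold higher in dentate granule cells. It was 6.43-fold lower in astrocytes and 6.19-fold lower in cerebellar granule cells. Between the 2 tamoxifen-treated glial types of the same tissue, astrocytes were 24.1-fold below microglia (log2 fold change -4.59, standard error 0.16, edgeR adjusted p = 1.52e-14).

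Other corticosteroid genes were counted from gene lists in the same contrasts, in the order dentate granule, layer V, cerebellar granule, interneuron, astrocyte and microglia. In that order 14.1%, 17.3%, 15.7%, 14.8%, 24.4% and 29.0% of all genes tested were called higher. The shares called lower were 14.0%, 16.2%, 33.2%, 11.3%, 10.4% and 20.8%. The counts of this list and of the later lists stand beside these shares. Of 15 textbook corticosteroid-responsive genes, all tested, 3, 3, 3, 1, 4 and 6 were higher and 5, 5, 6, 7, 4 and 2 lower, with median log2 fold changes of -0.77, -0.65, -0.56, -0.77, 0.41 and 0.89. The 3 genes of this list with the widest span were Pdk4, an inhibitor of pyruvate dehydrogenase, and the metallothioneins Mt1 and Mt2. Pdk4 lay at 45.1 to 52.6 TPM in astrocytes and at 1.49 TPM or less in every other library, and Mt1 at 2957 to 3386 TPM in astrocytes against at most 246 TPM elsewhere. Mt2 lay at 1834 to 2079 TPM in astrocytes and at most 117 TPM elsewhere. These 3 genes of the 15 peaked in the cell type where Fkbp5 was lowest. Of the 15 genes of the list, 4 were higher (24.4% of all genes were) and 4 lower (10.4%) in astrocytes. In microglia 6 of them were higher (29.0%) and 2 lower (20.8%).

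Of the 8 tested receptor chaperones and corticosteroid enzymes, 0, 1, 3, 0, 0 and 1 were higher and 0, 1, 0, 0, 3 and 1 lower, with medians of -0.19, 0.43, 0.67, 0.27, -0.97 and -0.20. Fkbp4, the cochaperone that promotes receptor transport, was at 596 to 612 TPM in cerebellar granule cells against at most 248 TPM elsewhere. The chaperone Hsp90aa1 was at 370.2 to 487 TPM in the glial types and at 822 to 2429 TPM in neurons. H6pd, which supplies the cofactor of the Hsd11b1 enzyme, was highest in microglia at 13.7 to 14.1 TPM and at 1.65 to 1.94 TPM in astrocytes, where Hsd11b1 was highest. Hsd11b2, the enzyme that inactivates corticosterone, was at 0 counts in 12 of 18 libraries and at no more than 3 estimated counts in any, where 0 counts allow up to 0.0420 to 0.0784 CPM by counting error alone. It did not pass the filter and was not tested.

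Thra (chromosome 11, 98740638 to 98769006, plus strand), which encodes the thyroid hormone receptor alpha isoforms, had the highest mean TPM of the 10 genes in the 4 neuronal types. In astrocytes its mean was level with that of Dio2, and in microglia it lay below Fkbp5. Dentate granule cells held 912, 1040.4 and 989 TPM. Layer V neurons (605 to 612 TPM) and interneurons (548 to 606 TPM) overlapped. Cerebellar granule cells held 434, 421 and 385 TPM, astrocytes 257, 234 and 232 TPM and microglia 98.8, 108 and 104 TPM. The order was therefore all neuronal types above both glial types, and the highest mean was 9.43 times the lowest. Thra was 2.65-fold higher in dentate granule cells than in the mean of the others (log2 fold change 1.41, standard error 0.032, edgeR adjusted p = 6.40e-17) and 4.42-fold lower in microglia. Astrocytes were 2.42-fold below layer V neurons.

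Most Thra TPM lay on the transcript of TRalpha2 length. Thra-201 held 68.3% to 76.7% and Thra-202 held 6.66% to 17.5% of Thra TPM on average in a cell type. The TPM of Thra-201 was 10.8, 11.1 and 11.1 times that of Thra-202 in dentate granule cells and 11.3, 12.1 and 11.2 times in interneurons. It was 6.43 to 7.52 times in layer V neurons, cerebellar granule cells and astrocytes. In microglia it was 3.80, 4.16 and 3.81 times, below every other library. A further coding model of 1240 nt, Thra-203, held 8.14% to 15.8%. The last exon of Thra-201 overlaps Nr1d1 on the other strand. The library kit marks strand, but whether the quantification used it is not given in the sources used here, so reads of the 2 genes over that overlap may not be separable.

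**Figure D4:**
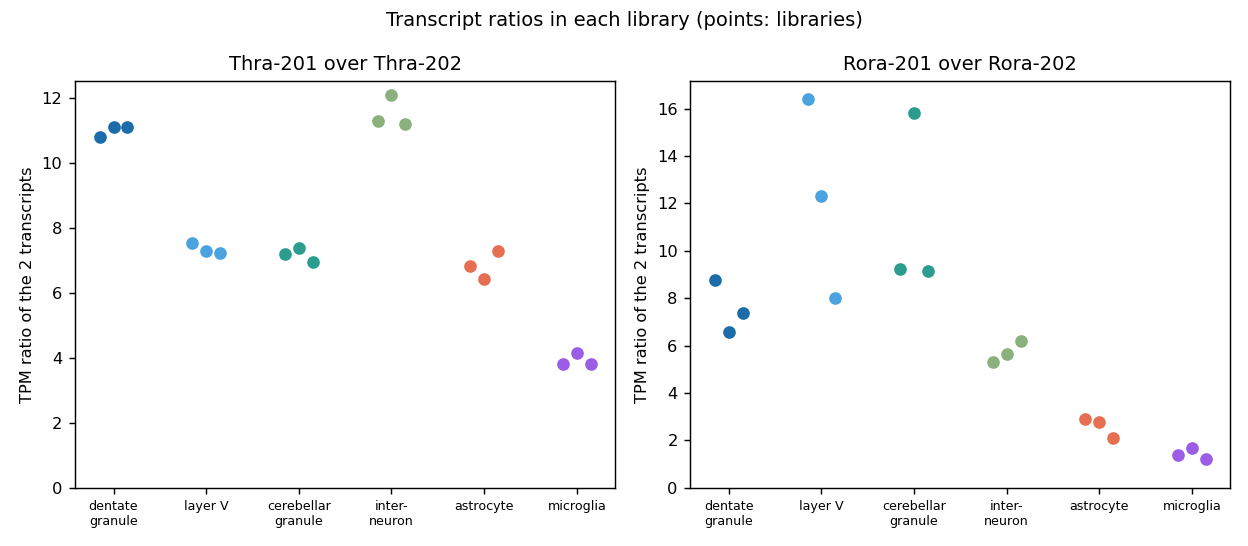
Ratio of the TPM of Thra-201 to Thra-202 (left) and of Rora-201 to Rora-202 (right), with 1 point for each library. Both ratios are lowest in the 3 microglia libraries, at 3.80 to 4.16 for Thra and 1.22 to 1.69 for Rora.

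Thrb (chromosome 14, 17660261 to 18038090, plus strand), the other thyroid hormone receptor gene, had a pattern of its own. Layer V neurons held 41.1, 34.7 and 38.7 TPM and interneurons 36.2, 36.6 and 38.3 TPM, with overlap. Dentate granule cells held 25.3 to 27.4 TPM and astrocytes 21.3 to 24.6 TPM. Microglia held 2.75 to 3.75 TPM and cerebellar granule cells 1.10 to 1.64 TPM. Cerebellar granule cells were 14.1-fold below the mean of the others (log2 fold change -3.82, standard error 0.080, edgeR adjusted p = 9.78e-18), whereas Thra was not called there by the same test (log2 fold change 0.03, edgeR adjusted p = 0.496). Thrb was 4.82-fold higher in layer V neurons, 2.99-fold in interneurons and 2.60-fold in astrocytes, and 5.07-fold lower in microglia. The TPM of Thra was 10.4 to 17.4 times that of Thrb in layer V neurons, interneurons and astrocytes, 27.7 to 41.1 times in dentate granule cells and microglia, and 235 to 382 times in cerebellar granule cells. On CPM, which are not divided by length, layer V neurons (84.3 ± 1.85, SD, n = 3) stood above interneurons (56.6 ± 1.79, SD, n = 3). The longest coding model, Thrb-202 of 6200 nt, held 66.0% ± 6.63 (SD, n = 3) of the gene's TPM in layer V neurons and 40.3% to 48.4% elsewhere.

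Dio2 (chromosome 12, 90724552 to 90738438, minus strand) encodes the deiodinase that makes triiodothyronine from thyroxine, and it was abundant in a single cell type. Astrocytes held 233, 249.6 and 241 TPM. Microglia followed at 3.78, 5.87 and 4.95 TPM, and the 12 neuronal libraries held 1.14 to 2.89 TPM. Every astrocyte library lay above all others. Interneurons overlapped cerebellar granule cells, which overlapped layer V neurons, and the last 2 changed places on CPM. In astrocytes Dio2 was 121-fold above the mean of the others (log2 fold change 6.91, standard error 0.078, edgeR adjusted p = 1.43e-21). Astrocyte markers summed to 161 to 209.8 TPM in microglia, where Dio2 was 52.1-fold below astrocytes; the part of astrocyte mRNA in that level was not tested.

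Genes of thyroid hormone transport and metabolism divided between neurons and glia. Of the 8 tested, 5, 2, 1, 0, 4 and 4 were higher and 0, 3, 4, 2, 2 and 1 lower in the 6 cell types in the order above, with medians of 1.65, -0.28, -1.66, -0.69, 0.72 and 0.36. The thyroxine transporter gene Slco1c1 lay at 147 to 159 TPM in astrocytes and 38.3 to 54.9 TPM in microglia, and at 6.61 TPM or less in all neuronal libraries. Endothelial cells also carry this transporter, and their marker Cldn5 was at 53.8 to 86.9 TPM in microglia against 13.0 to 19.3 TPM in astrocytes; the part of endothelial mRNA in the microglial level was not tested. Dio3, the deiodinase that inactivates thyroid hormone, was detected mainly in dentate granule cells (9.93 to 16.2 TPM) and layer V neurons (6.50 to 8.21 TPM). Crym, a cytosolic protein that binds triiodothyronine, followed the same 2 cell types with 281 to 338 and 232 to 238 TPM and was at 0.13 TPM or less in cerebellar granule cells. Dio1 was at 0 counts in 13 of 18 libraries and was not tested.

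Of 6 textbook thyroid hormone-responsive genes, 2, 2, 3, 0, 4 and 0 were higher and 2, 2, 2, 3, 0 and 2 lower, with medians of -0.32, 0.72, 0.05, -1.16, 1.62 and -0.21. Neurogranin (Nrgn) lay at 4788 to 5181 TPM in layer V neurons and 3211 to 3982 TPM in dentate granule cells, and below 1 TPM in cerebellar granule cells. Kcnj10, an inward rectifier potassium channel of glia, lay at 528 to 579.7 TPM in astrocytes and at most 18.1 TPM elsewhere. The corepressor gene Hr was highest in cerebellar granule cells at 88.5 to 94.3 TPM, the cell type with the least Thrb, against at most 18.3 TPM elsewhere.

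Rora (chromosome 9, 68653786 to 69388246, plus strand), an orphan receptor needed for cerebellar development, was highest in cerebellar granule cells at 60.9, 58.0 and 60.6 TPM. Interneurons held 28.4, 33.8 and 31.1 TPM, astrocytes 28.3, 27.2 and 27.7 TPM and layer V neurons 17.1, 17.8 and 19.2 TPM. Interneurons and astrocytes were adjacent and changed places on CPM. Dentate granule cells (4.99, 5.28 and 9.08 TPM) and microglia (4.61 to 5.95 TPM) overlapped, and dentate granule replicate 3 was the highest of these 6 libraries. Its second sequencing run gave 8.72 TPM. In that replicate the pyramidal marker Wfs1 was at 117 TPM, against 38.0 and 60.6 TPM in the other dentate granule libraries. Fibcd1 and Cpne4, also pyramidal markers, were not highest there. The part of other cells' mRNA in this Rora level was not tested. Rora was 4.70-fold above the mean of the others in cerebellar granule cells (log2 fold change 2.23, standard error 0.091, edgeR adjusted p = 1.04e-13), 3.47-fold below it in dentate granule cells and 5.79-fold below it in microglia. Purkinje cells also carry Rora. Their 3 markers summed to 47.8 to 53.5 TPM in cerebellar granule libraries against 512 to 583 TPM in dentate granule libraries. Of these 3, Calb1 was highest in dentate granule libraries, where it is itself abundant. Car8 was highest in astrocyte libraries, and only Pcp2 was highest in cerebellar granule libraries. The part of Purkinje mRNA in the Rora level was not tested.

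Rorb (chromosome 19, 18930605 to 19111196, minus strand) was abundant in fewer cell types. Astrocytes held 35.6, 36.9 and 35.5 TPM and layer V neurons 14.3, 14.3 and 14.8 TPM. Microglia held 1.46 to 2.05 TPM, and dentate granule cells, interneurons and cerebellar granule cells held 0.217 to 0.721 TPM. Rorb was 39.3-fold above the mean of the others in astrocytes (log2 fold change 5.30, standard error 0.070, edgeR adjusted p = 1.16e-20) and 12.0-fold above it in layer V neurons. Layer V neurons were 28.5-fold above dentate granule cells, which share their Cre line. Rora exceeded Rorb in every neuronal and microglial library, by 1.20 to 1.30 times in layer V neurons and 218 to 268 times in cerebellar granule cells, and in astrocytes Rorb was 1.26 to 1.36 times Rora.

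The isoform make-up of the ROR genes differed as well. Rora-201 (523 codons) held 82.1% to 90.2% of Rora TPM in the 4 neuronal types, 68.4% ± 3.14 (SD, n = 3) in astrocytes and 47.5% ± 3.04 (SD, n = 3) in microglia, with Rora-202 (467 codons) at 26.9% and 33.8% in the glial types. The Rora-201 to Rora-202 ratio was 2.08 to 2.92 in astrocytes and 1.22 to 1.69 in microglia against 5.30 to 16.4 in the neuronal libraries. For Rorb, the transcript with the longer coding start, Rorb-201, held 84.1% ± 1.96 (SD, n = 3) in layer V neurons and 44.5% ± 7.61 (SD, n = 3) in astrocytes. The Rorb-203 to Rorb-201 ratio was 0.156 to 0.214 in layer V neurons and 0.905 to 1.70 in astrocytes, with no overlap. In the other cell types Rorb was too low for a stable ratio, which ran from 0.42 to 275 among dentate granule libraries.

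Of 8 clock genes linked to ROR receptors, 0, 1, 3, 0, 3 and 0 were higher and 0, 0, 1, 3, 0 and 5 lower, with medians of 0.30, 0.55, 0.94, -0.45, 0.56 and -1.20. Cry2 lay at 12.7 to 13.9 TPM in microglia and at 61.3 to 85.2 TPM in every other library. Cry1 was highest in cerebellar granule cells at 30.9 to 36.4 TPM, and Npas2 in layer V neurons at 28.5 to 31.5 TPM. The hour at which tissue was taken is not given in the sources used here, so a difference in clock phase between libraries was not tested.

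For Esr1 (chromosome 10, 4611593 to 5005614, plus strand), which encodes oestrogen receptor alpha, the deposited transcripts gave 2 different accounts, and both are given. Summed over all transcripts, microglia held 89.5, 103 and 87.2 TPM, astrocytes 24.2, 28.3 and 25.8 TPM, interneurons 2.62, 3.70 and 2.78 TPM, layer V neurons 2.06 to 2.26 TPM and dentate granule cells 0.653 to 1.36 TPM. Cerebellar granule cells held 0 to 3 estimated counts per library, at the limit that 0 counts allow. In both glial types most of this TPM lay on a processed transcript of 1019 nt, of which 67.6% overlaps the Esr1 coding sequence from codon 370 to codon 599, the region of the ligand-binding domain. This 1019-nt transcript lay at 69.2, 79.1 and 64.6 TPM in microglia and 19.1, 21.1 and 19.8 TPM in astrocytes, and at 0.452 TPM or less in every neuronal library. A further 20.6% ± 1.61 in microglia and 21.5% ± 1.85 in astrocytes (SD, n = 3) was assigned to a 2612-nt transcript.

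The full Esr1 transcript of 6339 nt with 599 codons gave another order. It lay at 2.46, 3.02 and 2.43 TPM in interneurons, 2.13, 2.88 and 2.20 TPM in microglia and 1.97, 1.97 and 2.00 TPM in layer V neurons. Interneurons and microglia overlapped, and dentate granule cells (0.332 to 0.869 TPM) overlapped with astrocytes (0.220 to 0.500 TPM). The 6339-nt transcript held 90.4% ± 4.47 (SD, n = 3) of Esr1 TPM in layer V neurons and 87.5% ± 5.98 (SD, n = 3) in interneurons, but 2.56% ± 0.209 (SD, n = 3) in microglia and 1.19% ± 0.503 (SD, n = 3) in astrocytes. Cre-ERT2 carries a mutated ligand-binding domain of the human oestrogen receptor, and the 2 glial types are the 2 that carry it, so its mRNA and mouse Esr1 cannot be told apart here for the glial levels.

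**Figure D5:**
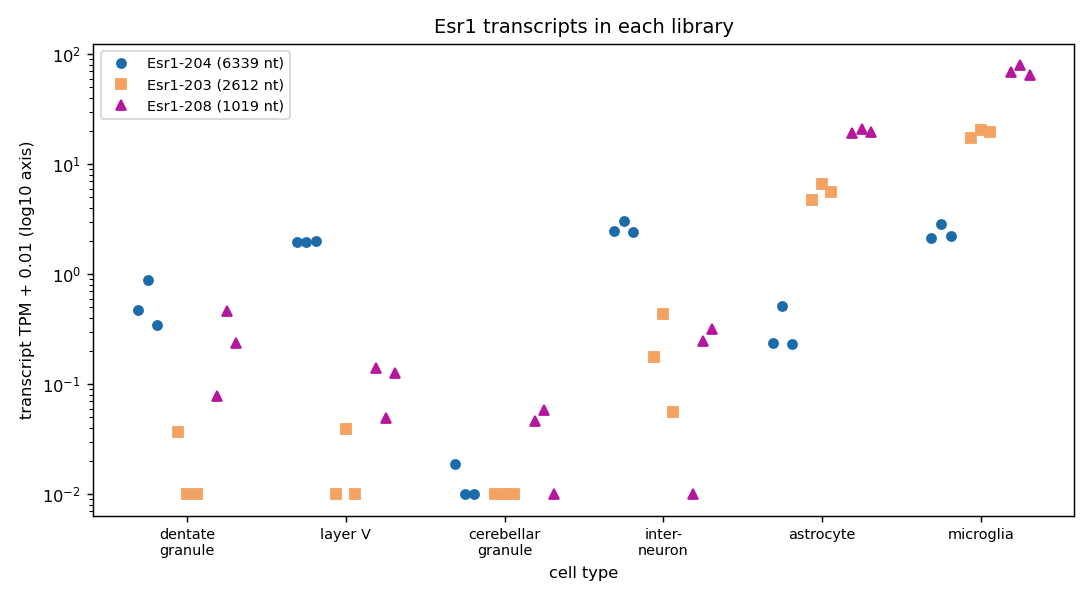
TPM plus 0.01 on a log10 axis of the 6339-nt, 2612-nt and 1019-nt transcripts of Esr1, with 1 point for each library. The 6339-nt transcript is the most abundant of the 3 in the layer V, interneuron and dentate granule libraries, and the 1019-nt transcript in the astrocyte and microglia libraries, at 19.1 to 79.1 TPM.

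With all transcripts, astrocytes were 3.21-fold above layer V neurons (log2 fold change 1.68, standard error 0.18, edgeR adjusted p = 9.40e-08). With the 6339-nt transcript alone, a choice made after the data were seen, they were 5.96-fold below them (log2 fold change -2.58, standard error 0.31, edgeR adjusted p = 5.44e-07). Microglia were above astrocytes by both counts, 3.52-fold and 7.25-fold. Interneurons were 4.40-fold above dentate granule cells with all transcripts and 4.54-fold with the 6339-nt transcript alone. Layer V neurons were above dentate granule cells by 3.98-fold and 4.24-fold. The contrasts of Esr1 against the mean of the other 5 cell types contain the cerebellar granule level near 0 counts and are given in the plot of fold changes without a reading.

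The progesterone receptor gene Pgr was highest in layer V neurons at 6.93 to 7.79 TPM and lowest in microglia at 0.276 to 0.363 TPM. Gper1, a membrane oestrogen receptor, did not exceed 2.27 TPM in any library.

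Partners of these receptors varied too. Rxrg, a partner of the thyroid hormone receptors, lay at 10.1 to 10.8 TPM in layer V neurons and 2.17 to 6.95 TPM in 4 other types, and was listed at 0 in all 3 cerebellar granule libraries. The oxysterol receptor gene Nr1h3 lay at 13.4 to 15.3 TPM in cerebellar granule cells and 7.53 to 8.56 TPM in astrocytes. Of 11 coactivators and corepressors, 1, 0, 5, 1, 1 and 2 were higher and 0, 1, 0, 0, 2 and 2 lower, with medians of 0.39, -0.28, 0.75, -0.09, -0.55 and -0.10. Among them Ppargc1a was highest in interneurons (54.1 to 59.3 TPM), Nrip1 in cerebellar granule cells (60.6 to 62.4 TPM) and Ncoa3 in microglia (39.9 to 40.8 TPM).

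Of 9 tested neurosteroid enzymes and carriers, 1, 2, 0, 0, 5 and 2 were higher and 1, 2, 3, 3, 1 and 2 lower, with medians of -0.16, 0.21, -0.86, -0.75, 1.21 and -0.23. Tspo, a mitochondrial translocator protein used as a glial marker, lay at 42.6 to 49.2 TPM in microglia and 14.1 to 16.2 TPM in astrocytes, and at 0.745 TPM or less in neurons. Cyp7b1, an oxysterol and neurosteroid hydroxylase, lay at 47.2 to 48.7 TPM in dentate granule cells and 35.7 to 36.5 TPM in astrocytes. Akr1c14, a hydroxysteroid dehydrogenase, did not exceed 3.76 TPM.

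Pairs of cell types that share a tissue, a driver or a batch were compared next. Between layer V neurons and dentate granule cells 7 of the 10 genes were called, against 26.3% of all genes: Esr1, Hsd11b1, Rora, Rorb and Thrb were higher in layer V neurons, and Fkbp5 and Nr3c2 were lower. The call of Thrb in this pair (log2 fold change 1.12) was lost on log2(TPM + 0.5), at 0.54. Among all genes called in this pair, 50.0% were higher in layer V neurons by edgeR and 36.1% by limma on log2(TPM + 0.5). Between astrocytes and layer V neurons 7 were called, against 47.6% of all genes. Dio2 (133-fold), Hsd11b1, Nr3c1, Rorb and Esr1 were higher in astrocytes, and Fkbp5 and Thra lower. The Esr1 call is from all transcripts summed and was reversed with the 6339-nt transcript alone (log2 fold change -2.58). Between astrocytes and microglia 9 were called, against 44.3%, with 7 higher in astrocytes, including Thrb (8.60-fold), Rora (7.18-fold) and Nr3c2 (4.50-fold). Nr3c1 alone was not called there (log2 fold change 0.19, standard error 0.055, edgeR adjusted p = 0.00455). Between interneurons and dentate granule cells 6 were called, against 28.3%. Hsd11b1, Rora and Esr1 were higher in interneurons, and Fkbp5, Nr3c2 and Nr3c1 lower. The call of Nr3c1 there rests on a 2.01-fold difference at the edge of the rule.

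The genes whose log2 CPM ran most like that of a member over the 18 libraries of 6 cell types were named by Pearson correlation, as a description, since libraries of a cell type share their level. For Dio2 they were Dbi (r = 0.995), Timp4 (r = 0.994) and Gpr37l1 (r = 0.991), and for Hsd11b1 they were Fbxo2 (r = 0.989), Msmo1 (r = 0.986) and Mir9-3hg (r = 0.982). Thra ran with Pnmal1 (r = 0.996), Borcs5 (r = 0.993) and Arhgef17 (r = 0.992), and Thrb with Rhbdd2 (r = 0.991), Gucy1a1 (r = 0.978) and Gm34304 (r = 0.976). Nr3c1 ran with Cdyl, Nlrx1 and Csgalnact2 (r = 0.966 to 0.972), Nr3c2 with Rwdd3, Fbxo10 and Best3 (r = 0.939 to 0.970), and Fkbp5 with Lpin2, Ppm1f and Parp1 (r = 0.964 to 0.984). Rora ran with Efr3b, Osgepl1 and Inpp5a (r = 0.978 to 0.989), Rorb with Fzd10os, Gm35290 and Aldh1a7 (r = 0.976 to 0.980), and Esr1 with Pfkfb3, Cks1b and Sec11c (r = 0.982 to 0.991). The Esr1 level used here sums all transcripts, and its glial part cannot be told apart from Cre-ERT2 mRNA. Among the members themselves the highest correlation was that of Hsd11b1 and Rorb (r = 0.865) and the lowest that of Fkbp5 and Rora (r = -0.922).

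The 4 replicates sequenced a further time allowed the libraries to be set beside themselves. Over the 36 pairs of a gene and a replicate with at least 1 TPM, the second run gave 0.615 to 1.23 times the TPM of the first, with a median of 1.00, and 33 of the 36 were within 20%. The exceptions were Hsd11b1, Thrb and Dio2 in cerebellar granule replicate 3, each at 2.00 TPM or less in the first run.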

How the data were processed

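Ribosome-bound mRNA was purified from tagged cells with a stranded mRNA kit and sequenced as paired ends. Per the labels and the study's methods, adapters were removed with cutadapt 3.5, and kallisto 0.46.2 assigned reads to GENCODE M24 transcripts (GRCm38). The deposited tables give an estimated count per transcript, which need not be whole, and the deposited TPM per transcript, which the authors took from kallisto and which is scaled by effective length.

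Of 22 libraries, 18 entered, with the batch 1 library where a replicate was sequenced again. Transcript values were summed by gene. Estimated counts were rounded, filtered by filterByExpr to 20524 of 55385 genes, scaled by TMM and fitted with edgeR 4.0.16 (quasi-likelihood test, R 4.3.3). A run on simulated counts changed some genes in microglia alone, whereas most genes differ between cell types here. It therefore does not test the contrasts as used, and no reading rests on it. Genes were named by symbol, and within a list the 3 with the widest span of log2 CPM. Alternatives were limma 3.58.1 on log2(TPM + 0.5) and log2(TPM + 0.1), DESeq2 1.42.0, no filter, the replicate block and second runs. Further settings were batch 1 alone, batch 2 alone, all 22 libraries with batch as a term, and each replicate left out. Intervals from counting cover counting error only. P-values set the difference between cell types against the spread between libraries of a cell type. Standard errors of edgeR fold changes were back-calculated, as the absolute log2 fold change over the square root of the test's F value. The 10 genes, the lists and the tests were chosen with earlier results of these data known. The authors' own test was not run. Some genes of 2 of the lists, and the counts over those lists, are not reported here.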

Additional observations from a re-analysis of the deposited data

How the results depend on the processing

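Of 68 called contrasts of the 10 genes, recomputed to 1877 alternative values, 1842 kept their direction and their side of the threshold, 29 lost the call and 6 changed direction, all 6 for Esr1. The call of Nr3c1 between interneurons and dentate granule cells was lost in 21 of 27 settings. The lower call of Esr1 in dentate granule cells was lost without cerebellar granule replicate 1 (edgeR adjusted p = 0.155), and Thrb in astrocytes on log2(TPM + 0.5), at 0.92. With limma on log2(TPM + 0.5), all genes numbered 1890 higher in layer V neurons, 4394 lower in cerebellar granule cells, 1294 lower in interneurons, 2741 higher in astrocytes and 3770 higher in microglia. The members lower in layer V neurons were then 2, those higher in interneurons 1, and Esr1 in interneurons was -0.64 (log2), or -0.26 with a pseudocount of 0.1. With batch 1 libraries alone, Esr1 in dentate granule cells was 0.02, and the members numbered 2 lower in layer V neurons, 1 higher in cerebellar granule cells and 2 lower in astrocytes. These batch 1 contrasts have neither interneurons nor microglia among the other cell types, so their reference also differs. With the 6339-nt Esr1 transcript alone, chosen after seeing the data, Esr1 was 0.10 in dentate granule cells, -0.49 in astrocytes and -2.58 between astrocytes and layer V neurons. Leaving out each replicate in turn gave 1 to 2 members higher in interneurons, with 1 without cerebellar granule replicate 3 and without interneuron replicate 2. With second runs in place, layer V Nr3c2 was 9.38 TPM, astrocyte Fkbp5 5.46 TPM and the layer V log2 ratio of Nr3c2 to Nr3c1 -1.44. On CPM, 2 cell types changed rank for each of Thrb, Dio2 and Rora. The cause of these shifts was not tested. With the replicate block 3 members were called higher in dentate granule cells, and 2869 of all genes. Once each cell type's mean log2 CPM was taken out, same-numbered libraries of different cell types correlated at -0.0999 to 0.109. The numbers were not treated as pairs in the main fit. Depth limits Esr1 and Rorb in cerebellar granule cells.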
